A study of Rattus norvegicus with 26 samples.

Results

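The genes described here are the potassium channel genes of the rat spinal cord, taken as every row of the joint count table whose symbol begins with Kcn, apart from 1 gene that the selection left out, with at least 10 counts in at least 3 libraries over all groups. Of 91 such rows, 83 met the count minimum, and all 83 were among the 17990 genes tested of the 32883 in the table. The 8 rows below the minimum were Kcna10, Kcne1, Kcnj1, Kcnk18, Kcnk6, Kcnmb3, Kcnu1 and Kcnv2. In 64 of the 83 genes the minimum was met in each of the 26 libraries. By symbol, the genes comprised 7 Kv1 and 7 Kv2, Kv3 or Kv4 subunits, 9 silent Kv subunits, 5 Kv7, 8 EAG/ERG/ELK, 5 calcium-activated, 2 sodium-activated, 13 inward rectifier and 12 two-pore channel genes, 14 accessory subunits and Kcnrg.

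Poly(A) RNA of 5 mm spinal cord segments centred on the lesion was sequenced, with 1 library per sample in 8 groups of wild type Sprague-Dawley rats, given as postnatal day 70 and, per the study's methods, adult females. The same age is given for groups collected at different times after injury, so the age at collection may differ between groups. The uninjured group was Intact (n = 4, labelled untreated). The injured groups had a laminectomy and a clip of 60 g closed on the cord at T10 for 1 min, and were collected 7 days later, before any transplantation (sub-SCI, n = 3), or 1, 2 or 4 weeks (written wpt, weeks post transplantation) after injection of hUC-MSCs, mesenchymal stem cells from the human umbilical cord, into the lumbar intrathecal space (+MSC-1w, n = 3, +MSC-2w, n = 3, and +MSC-4w, n = 4) or of PBS (+PBS-1w, n = 3, +PBS-2w, n = 2, and +PBS-4w, n = 4). The methods give daily cyclosporin A, an immunosuppressant, to the rats throughout, so +MSC and +PBS share the drug. Whether Intact and sub-SCI rats had it is not stated, so comparisons with these groups may also differ in the drug. Time after injury and time after injection cannot be told apart. Group sizes follow the labels, whereas the methods text gives the smallest group as +MSC-2w and not +PBS-2w, so the values of these groups rest on the labels. The methods speak of biological replicates for each condition, but the labels do not say which libraries came from separate rats. The p-values measure the spread between these libraries.

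Potassium channels let potassium leave the cell, which sets the resting potential, ends the action potential and limits how often a neuron fires. Voltage-gated (Kv) channels open on depolarization, Kv1 along axons beside the nodes of Ranvier and Kv3 in neurons that fire at high rates, while Kv7 channels carry the M-current that damps repetitive firing. Calcium-activated channels couple firing or immune activation to calcium, inward rectifiers and two-pore channels hold the resting potential in neurons, glia and vascular cells, and accessory subunits set the trafficking and gating of the pore subunits.

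The promoters of 5 genes are shown, Kcnk13, Kcnj5 and Kcnab2 because these genes moved in opposite directions after injury (the first pair up, Kcnab2 down), as described below and Kcna2 and Kcnh6, which fell, because they hold RE1 letters. They are RefSeq windows of the GRCr8 assembly around the annotated start, 5′ to 3′ on the gene's strand. Capitals mark the motif letters searched on both strands, namely the left (TTCAGCACC) and right (GGACAGC) sides of RE1, the element bound by REST, a repressor of neuronal genes in other cells, the AP-1 motif (TGAGTCA), the CRE motif (TGACGTCA), the GC box motif (GGGCGG), the ETS motif (GAGGAA) and the TATA box motif (TATAAA). No matches overlapped in these windows. Kcna2 and Kcnh6 were chosen after their matches were seen.
Kcnk13, chr6:124971559-124971858, plus strand: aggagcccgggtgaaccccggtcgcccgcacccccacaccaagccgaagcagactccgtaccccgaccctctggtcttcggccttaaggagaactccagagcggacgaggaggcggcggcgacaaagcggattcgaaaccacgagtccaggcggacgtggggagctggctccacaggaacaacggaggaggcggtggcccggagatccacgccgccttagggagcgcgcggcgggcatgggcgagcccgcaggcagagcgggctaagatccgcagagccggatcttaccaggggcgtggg
Kcnj5, chr8:39011047-39011346, minus strand: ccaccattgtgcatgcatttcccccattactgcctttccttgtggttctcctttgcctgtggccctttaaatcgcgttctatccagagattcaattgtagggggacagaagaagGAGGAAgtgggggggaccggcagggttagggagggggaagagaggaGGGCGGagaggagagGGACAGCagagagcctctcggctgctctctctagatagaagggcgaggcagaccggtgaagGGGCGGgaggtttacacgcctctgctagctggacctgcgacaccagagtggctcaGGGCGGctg
Kcnab2, chr5:168270711-168271010, minus strand: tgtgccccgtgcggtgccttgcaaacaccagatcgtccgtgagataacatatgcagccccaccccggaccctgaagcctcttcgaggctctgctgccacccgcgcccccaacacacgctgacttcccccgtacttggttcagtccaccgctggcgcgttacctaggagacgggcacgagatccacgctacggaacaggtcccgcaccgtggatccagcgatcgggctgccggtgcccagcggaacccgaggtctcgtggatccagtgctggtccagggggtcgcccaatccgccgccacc
Kcna2, chr2:197393280-197393579, plus strand: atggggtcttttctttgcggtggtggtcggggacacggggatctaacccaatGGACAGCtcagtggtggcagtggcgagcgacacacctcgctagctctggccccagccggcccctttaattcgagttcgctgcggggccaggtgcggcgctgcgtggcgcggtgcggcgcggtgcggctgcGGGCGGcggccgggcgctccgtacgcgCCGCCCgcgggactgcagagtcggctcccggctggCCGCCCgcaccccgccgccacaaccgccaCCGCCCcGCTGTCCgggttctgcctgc
Kcnh6, chr10:91449401-91449700, plus strand: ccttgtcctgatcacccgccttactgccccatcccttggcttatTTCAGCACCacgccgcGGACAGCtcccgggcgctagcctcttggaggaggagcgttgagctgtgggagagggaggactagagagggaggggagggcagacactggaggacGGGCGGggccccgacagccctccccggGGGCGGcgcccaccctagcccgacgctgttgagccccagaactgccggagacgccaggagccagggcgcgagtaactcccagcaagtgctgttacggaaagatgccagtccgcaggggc

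Neither Kcnk13 nor Kcnab2 held any of these letters. Kcnj5 held 5 matches, with the right RE1 side first at base -75 from the start, 3 GC boxes and 1 ETS match. Kcna2 held the right side at -198 and again at 30, with 4 GC boxes. Kcnh6 held the left side at -206 and the right side at -190. RefSeq promoters were matched by symbol for 55 of the 83 genes. Over those 55, the right RE1 side was found in 7 (12.7%, against 6.59% of all 33469 promoters), the left side in 1 (1.82%, against 0.356%), GC boxes in 29 (52.7%, against 33.1%), ETS letters in 19 (34.5%, against 27.6%), TATA letters in 1 (1.82%, against 14.2%), and neither AP-1 (4.63% of all) nor CRE letters (1.83% of all) in any. The median GC content was 62.3% in the 55 promoters and 51.7% in all. A match is a description of the letters and not a bound site.

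Total counts per library lay between 19496602 and 43468509. The neuron markers checked the tissue, with a summed level of 11737 to 13971 CPM (counts scaled to the library total with TMM normalization factors) in Intact, 500 to 2481 in sub-SCI and, over the +PBS groups, from 1370 to 7167. All 10 neuron markers were above 0 in all groups. The highest +PBS value, 7167, was replicate 1 of +PBS-4w, which stood apart from the other 3 libraries of its group (median over all 4, 2444). In that library 39 of the 83 potassium channel genes lay above and 28 below the other 3 libraries, against 39.3% and 39.7% of all genes tested. The counts of its comparisons, and several of the values, are given with and without it.

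Before injury, among the highest levels per kilobase of gene length was that of the β-subunit of Kv1 channels Kcnab2 (121 ± 11.7 CPM per kb, SD, n = 4). The axonal Kv1 subunits followed, with Kcna1 at 71.9 ± 12.8, Kcna2 at 66.5 ± 8.89 and Kcna6 at 55.6 ± 4.78, and then Kcnj16, an inward rectifier subunit, at 43.5 ± 2.72. Kcna1 and Kcna2 differed by less than their SD, as did Kcnj16 and Kcnc1 (42.3 ± 4.68). Summed over the 83 genes, the level was 4436 ± 321 CPM in Intact (SD, n = 4), 849 ± 213 in sub-SCI (n = 3), 1217 ± 242, 1713 ± 429 and 1458 ± 246 in +PBS at 1, 2 and 4 wpt (n = 3, 2 and 4), and 2082 ± 158, 2721 ± 265 and 2446 ± 360 in +MSC (n = 3, 3 and 4). Each +MSC group thus lay between the +PBS group of its week and Intact, and Kcna2 alone made up 17.5% of the Intact sum.

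Most potassium channel genes were lower after injury. A differentially expressed gene (DEG) had to change by more than 1 on the log2 scale in either direction with an adjusted p under 0.01 (edgeR's quasi-likelihood test on the counts, Benjamini-Hochberg adjustment over all genes tested). Against Intact, 61 of the 83 genes were DEGs lower in sub-SCI and 3 higher, where 17.5% of all genes tested were lower and 16.6% higher, so that 73.5% of the channel genes had fallen. In +PBS-1w 46 were lower and 3 higher (all genes 12.5% and 13.5%), in +PBS-2w 29 and 4 (5.66% and 8.84%), and in +PBS-4w 44 and 7 (10.7% and 13.3%). The median log2 fold change over the 83 genes was -1.88, -1.40, -1.17 and -1.21 in this order, and over all genes tested between -0.02 and 0.05. Without +PBS-4w replicate 1 there were 57 DEGs in both directions in +PBS-4w in place of 51, and 49 of the 51 were among them. The count in +PBS-2w, a group of 2 libraries, fell from 33 DEGs in both directions together to 4 without its replicate 1.

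Over the 4 injury comparisons, which share the Intact libraries, patterns were counted for the 83 genes only, with no share of all genes tested as a baseline. Of the 83, 29 genes were DEGs lower in all 4, 12 in 3, 8 in 2 and 12 in 1. Kcnn4, Kcnk13 and Kcnj5 were higher in all 4, 4 further genes were higher in at least 1, and 16 were DEGs in none. The neuron markers moved with these genes, with 9 of 10 DEGs lower in sub-SCI (median log2 fold change -3.00), 9 in +PBS-1w, 3 in +PBS-2w and 9 in +PBS-4w. Oligodendrocyte markers fell as well, with 5 of 8 DEGs lower in sub-SCI, 5 in +PBS-1w, 2 in +PBS-2w and 5 in +PBS-4w (medians -1.14, -1.33, -1.02 and -1.28), and of 8 astrocyte markers 5 were DEGs lower in sub-SCI (median -1.15), 2 in +PBS-1w, 0 in +PBS-2w and 1 in +PBS-4w. Across the 26 libraries the mean log2 level of the 83 genes followed that of the neuron markers (Pearson r = 0.953, a description across libraries that share groups). In these bulk samples fewer neurons and less channel RNA per neuron cannot be told apart.

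**Figure D1:**
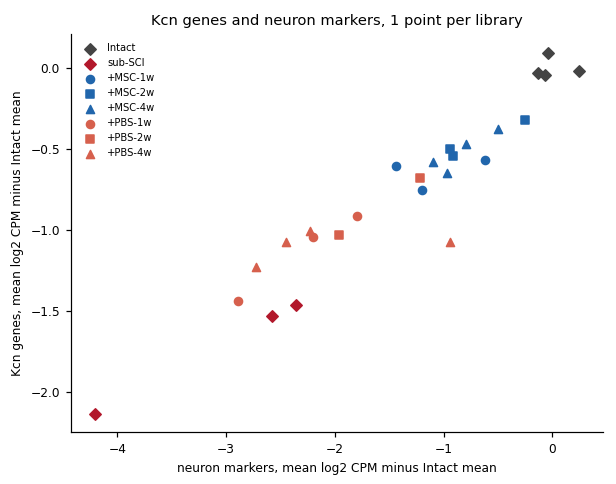
Mean log2 CPM of the 83 Kcn genes (vertical axis) against that of the 10 neuron markers (horizontal axis), each as the difference from the Intact mean, with 1 point per library. The libraries lie along 1 band from sub-SCI (Kcn genes down to -2.14) to Intact, and +PBS-4w replicate 1 lies off it, with neuron markers at -0.94 and Kcn genes at -1.08.

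Kv1 subunits and their β-subunits form the low-threshold channels beside the nodes of Ranvier and at axon terminals. Of 7 Kv1 genes, 5 were DEGs lower in sub-SCI and 4 in +PBS-4w. Kcna2, the most abundant of the Kv1 genes in counts, was at 828, 682, 898 and 699 CPM in the 4 Intact libraries and at 82.9, 96.4 and 40.1 in sub-SCI. In the +PBS libraries it was at 160, 171 and 144 (1 wpt), 206 and 319 (2 wpt) and 213, 224, 216 and 260 (4 wpt). No injured library without hUC-MSCs came near the Intact range. The fall in sub-SCI was 10.6-fold (log2 fold change -3.41, SE 0.23, adjusted p = 1.19e-10) and in +PBS-4w 3.40-fold. Kcna1 fell 11.6-fold in sub-SCI (-3.53, SE 0.43, adjusted p = 4.91e-07), from 105 to 146 CPM in Intact to 8.44 to 12.2.

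The β-subunit genes Kcnab1, Kcnab2 and Kcnab3 were DEGs lower in all 4 injury comparisons. Kcnab2 was at 256, 222, 265 and 221 CPM in Intact, and at 28.8, 32.5 and 17.9 in sub-SCI, 9.12-fold lower (log2 fold change -3.19, SE 0.31, adjusted p = 1.67e-08). Its +PBS values were 51.2, 41.2 and 30.3 in the first week, 49.2 and 77.7 in +PBS-2w, and 77.7, 31.0, 43.3 and 45.6 in +PBS-4w. The groups did not overlap with Intact at any time. Kcna3, a Kv1 subunit of lymphocytes and microglia as well as neurons, was not a DEG in any injury comparison, at 4.72 to 8.02 CPM in Intact and 4.45 to 7.43 in sub-SCI (log2 fold change -0.17, SE 0.47). Its +PBS libraries nevertheless lay above the Intact range, at 10.2, 15.3 and 9.05 in +PBS-1w and 12.9 and 11.2 in +PBS-2w. In +PBS-4w it was at 10.3, 14.4 and 11.5, but at 1.23 in replicate 1. Without replicate 1 the log2 fold change in +PBS-4w was 0.86 (SE 0.29, edgeR adjusted p = 0.0149).

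Kv3 channels repolarize fast-spiking neurons and motoneurons quickly. All 4 Kv3 genes were DEGs lower in sub-SCI, in +PBS-1w and in +PBS-4w, and 3 of 4 in +PBS-2w. Kcnc1 was at 192, 153, 173 and 154 CPM in Intact and at 12.8, 26.2 and 5.87 in sub-SCI. It was at 25.4, 25.9 and 19.9 in +PBS-1w, at 22.3 and 56.9 in +PBS-2w, and at 71.8, 17.3, 23 and 18.9 in +PBS-4w, where 71.8 belonged to replicate 1. No injured library without hUC-MSCs reached the Intact range. Kcnc1 fell 11.2-fold in sub-SCI (-3.49, SE 0.53, adjusted p = 7.89e-06), and in +PBS-4w its log2 fold change was -2.36 with replicate 1 and -3.04 without it.

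The Kv7 genes Kcnq3 and Kcnq5 encode subunits of the M-channel of neurons. Of the 5 Kv7 genes, 4 were DEGs lower in sub-SCI and 4 in +PBS-4w. Kcnq5 was a DEG lower in all 4 comparisons (-1.42, SE 0.16, in sub-SCI). Kcnq3 was a DEG lower in 3 of the 4, and in +PBS-4w replicate 1 stood at 0.82 CPM against 9.13 to 10 in the other 3 libraries.

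In the EAG/ERG/ELK family, voltage-gated channels of neurons and heart, all 8 genes were DEGs lower in sub-SCI, and 5 in +PBS-4w. Kcnh7 fell 18.1-fold in sub-SCI (log2 fold change -4.18, SE 0.48, adjusted p = 1.75e-07), from 4.49 to 6.98 CPM in Intact to 0.24 to 0.40, and Kcnh5 17.4-fold (-4.12, SE 0.51, adjusted p = 5.75e-07). These are low levels that rest on few reads in the injured libraries. Of 9 silent Kv genes, whose subunits make no channel alone but alter Kv2 channels, 7 were lower in sub-SCI. Kcng1 fell 5.71-fold (-2.51, SE 0.42, adjusted p = 2.27e-05) and Kcns2 4.42-fold (-2.15, SE 0.52, adjusted p = 0.00120). Kcng2 was the gene with the smallest change of all, at 0.02 (SE 0.25).

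The calcium-activated genes split by direction. Kcnma1 (the BK channel) and the SK genes Kcnn2 and Kcnn3 of neurons were lower in sub-SCI, by log2 fold changes of -2.88 (SE 0.34, adjusted p = 2.89e-07), -1.77 (SE 0.28, adjusted p = 1.35e-05) and -1.31 (SE 0.25, adjusted p = 9.78e-05). Kcnn4, the intermediate-conductance channel of lymphocytes, macrophages and red blood cells, had the largest absolute change of the 83 genes. It was at 1.47, 1.92, 1.71 and 6.84 CPM in Intact, at 47.8, 70.4 and 68.8 in sub-SCI, at 57.8, 23.4 and 34.1 in +PBS-1w, at 34.3 and 29.5 in +PBS-2w and at 51.6, 22.9, 21.6 and 18.1 in +PBS-4w. Every injured library without hUC-MSCs was above every Intact library, and the log2 fold change was 4.35 in sub-SCI (SE 0.55, adjusted p = 6.38e-07) and 3.23 in +PBS-4w (SE 0.51, adjusted p = 2.31e-05). Without Intact replicate 4, the library at 6.84, the change in sub-SCI was 5.18 (SE 0.55), and in +PBS-4w it was 4.06 (SE 0.52). Both sodium-activated genes were lower in all 4 comparisons, with Kcnt1 at -2.21 (SE 0.24, adjusted p = 7.24e-08) in sub-SCI.

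Among the inward rectifiers, 8 of 13 were DEGs lower and 1 higher in sub-SCI. Kcnj3 and Kcnj6, subunits of the G protein-gated (GIRK) channels that inhibitory receptors open in neurons, fell 10.1-fold (log2 fold change -3.34, SE 0.34, adjusted p = 3.57e-08) and 16.6-fold (-4.05, SE 0.44, adjusted p = 9.08e-08), and the GIRK gene Kcnj9 fell less (-1.53, SE 0.16, adjusted p = 5.22e-08). The remaining GIRK gene, Kcnj5, rose. It was at 2.95, 4.58, 3.56 and 5.09 CPM in Intact, at 11.2, 13.7 and 6.31 in sub-SCI, at 15.9, 16.7 and 11.9 in +PBS-1w, at 14.3 and 11.6 in +PBS-2w and at 9.61, 6.39, 11.2 and 7.80 in +PBS-4w. All of these injured libraries were above the Intact range, and the log2 fold change was 1.36 (SE 0.28, adjusted p = 2.89e-04) in sub-SCI. Kcnj16, expressed in glia, fell in sub-SCI (-1.21, SE 0.14, adjusted p = 3.13e-07) but was no DEG at 1, 2 or 4 wpt in +PBS. The astrocyte markers had 5 of 8 DEGs lower in sub-SCI and 2, 0 and 1 at these times, and their part in Kcnj16 was not tested. Kcnj2 and Kcnj8, the latter a pericyte KATP subunit, were DEGs in none of the 4, at 0.18 (SE 0.37) and 0.75 (SE 0.26) in sub-SCI.

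Two-pore channels carry the background potassium current. Of 12, 8 were DEGs lower in sub-SCI, among them Kcnk9 (TASK-3), 18-fold lower (log2 fold change -4.17, SE 0.50, adjusted p = 3.55e-07), and Kcnk1 (TWIK-1), at -2.85 (SE 0.33, adjusted p = 1.79e-07). Kcnk9 was at 52.3, 57.9, 72.0 and 48.5 CPM in Intact, at 3.75, 4.82 and 1.02 in sub-SCI and at 4.99, 8.93, 14.7 and 15 in +PBS-4w, with no overlap. Kcnk13 (THIK-1), a potassium channel of microglia, rose. It was at 2.78, 2.84, 3.15 and 3.80 CPM in Intact, at 20.1, 25.3 and 18.3 in sub-SCI, at 22.7, 16.4 and 15.7 in +PBS-1w, at 15.1 and 9.44 in +PBS-2w and at 13.8, 8.86, 12.3 and 12.1 in +PBS-4w. The log2 fold change was 2.75 (SE 0.22, adjusted p = 1.06e-09) in sub-SCI and 1.9 (SE 0.20, adjusted p = 1.95e-07) in +PBS-4w. Beside Kcnn4 and Kcnk13, all 8 microglia and macrophage markers were DEGs higher in sub-SCI, +PBS-1w and +PBS-2w and 7 of 8 in +PBS-4w, with a summed level of 291 to 469 CPM in Intact and 1614 to 4779 over the injured libraries without hUC-MSCs. All 4 T cell markers were DEGs higher in sub-SCI too. The part of these cells in the rise of both genes was not tested.

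**Figure D2:**
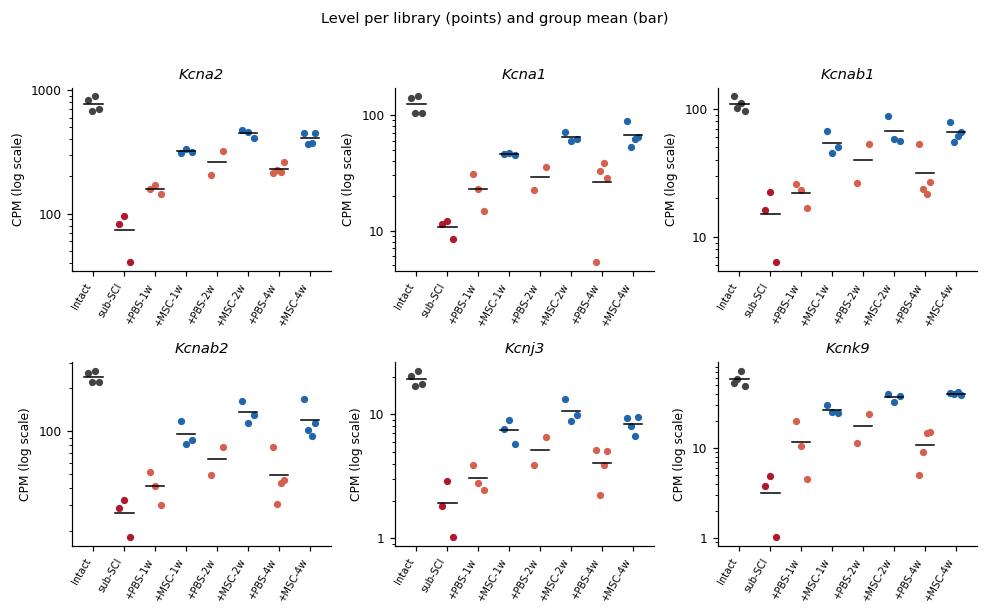
Level in CPM (log axis) of 6 genes that fell after injury, with 1 point per library and a bar at the group mean, for Intact (grey), sub-SCI (dark red), +PBS (light red) and +MSC (blue) by week. In each panel the sub-SCI libraries lie lowest or near the lowest, all injured libraries lie below Intact, and the +MSC libraries lie above the +PBS libraries of their week.

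Some genes were DEGs higher at 2 or 4 wpt and not earlier. Kcnk16, a two-pore channel, was a DEG lower in sub-SCI (log2 fold change -1.69, SE 0.38, adjusted p = 5.84e-04) and a DEG higher in +PBS-2w (1.31, SE 0.37, adjusted p = 0.00847) and +PBS-4w (1.58, SE 0.32, adjusted p = 2.95e-04). Its levels were 1.31, 1.51, 1.39 and 1.14 CPM in Intact, 0.55, 0.51 and 0.17 in sub-SCI, 1.01, 1.01 and 2.60 in +PBS-1w, 3.84 and 2.78 in +PBS-2w and 2.91, 5.40, 3.62 and 4.04 in +PBS-4w. It was the 1 gene of 83 that was a DEG in both directions. Kcnj13, an inward rectifier of epithelia, Kcnk5 (TASK-2) and the accessory subunit Kcne4 were DEGs higher only in the +PBS-4w comparison among the 4. Kcne4 was named after its values were seen. It was at 2.18 to 3.07 CPM in Intact and at 1.97, 17.0, 10.2 and 6.24 in +PBS-4w. Its +PBS libraries of the earlier weeks were already above Intact, at 4.22, 4.63 and 8.09 in +PBS-1w and 3.52 and 4.00 in +PBS-2w. In sub-SCI it was at 4.68, 2.17 and 4.07, so not every library there was above Intact. DESeq2 on the 2 groups also called Kcne4 in +PBS-1w. Kcnj13 was above Intact in +PBS-2w too, at 5.57 and 5.59, so the time of the call depends on the threshold. Kcnj13 was at 0.05, 1.37, 2.41 and 1.79 CPM in Intact and at 1.94, 12.3, 9.66 and 6.56 in +PBS-4w (log2 fold change 2.42, SE 0.64, adjusted p = 0.00329, and 2.79, SE 0.61, without +PBS-4w replicate 1). Kcnk5 was at 1.80 to 4.18 CPM in Intact and at 4.25, 29.6, 9.84 and 12.4 in +PBS-4w (2.08, SE 0.57, adjusted p = 0.00408, and 2.43, SE 0.55, without +PBS-4w replicate 1). In sub-SCI it was at 6.16, 6.20 and 18.5, above each Intact library, but missed the DEG threshold in edgeR (1.63, SE 0.59, adjusted p = 0.0210) and passed it in DESeq2. Fibroblast markers were low in the libraries where Kcnj13 was lowest within Intact (replicate 1, mean log2 level -2.90 from the Intact mean, Kcnj13 at 0.05 CPM) and within +PBS-4w (replicate 1, 1.66, against 3.09 to 3.39), but were highest as a group in sub-SCI (3.84 to 4.98), where Kcnj13 was at 0.22 to 0.54 CPM and Kcnk16 at 0.17 to 0.55. All 4 fibroblast markers were detected in all groups, with a summed level of 38.6 to 863 CPM in Intact, 6325 to 13028 in sub-SCI and 908 to 3460 in +PBS-4w. Of 4 Schwann cell markers, all were positive in +PBS-4w against Intact (median log2 fold change 1.83, 1 a DEG higher) and against sub-SCI (median 1.79, no DEG), with a summed level of 9.99 to 1195 CPM in Intact, 258 to 682 in sub-SCI and 1489 to 3077 in +PBS-4w. The fibroblast median in +PBS-4w against sub-SCI was -1.55. The part of these cells in the levels of these genes was not tested.

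Between sub-SCI and +PBS-4w, that is over the weeks after injury without hUC-MSCs, 14 of the 83 genes were DEGs higher and 1 lower (4.28% and 3.09% of all genes tested). On the log2 scale Kcna2 rose by 1.64 (SE 0.21, adjusted p = 1.48e-05), Kcnk1 by 1.65 (SE 0.31, adjusted p = 6.05e-04) and Kcnt1 by 1.03 (SE 0.23, adjusted p = 0.00225). Kcnk16 (3.26, SE 0.39) and Kcnj13 (4.20, SE 0.80) rose most. Kcnq5 was not a DEG and stood at -0.34 (SE 0.15). Markers of other cells moved with this rise, with 5 of 8 astrocyte markers DEGs higher (8 of 8 positive, median log2 fold change 1.13) and the 10 neuron markers all positive with none a DEG (median 1.04, 3 at an adjusted p under 0.05). Their part in this rise was not tested. Without sub-SCI replicate 3, whose neuron markers were the lowest of all libraries, 9 genes were DEGs in place of 15. The groups differ in time, in the injection, in the surgery for it and possibly in cyclosporin A, which cannot be told apart.

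The next comparison asked whether hUC-MSC transplantation changed these genes in the injured cord. At 1 wpt and at 2 wpt no potassium channel gene was a DEG between +MSC and +PBS by edgeR's quasi-likelihood test, and almost none of all genes was (at 1 wpt 0% higher and 0.0111% lower, at 2 wpt 0% in both directions). At an unadjusted p under 0.05 the first week had 31 genes up and 2 down (10.6% and 7.34% of all genes tested), the second had 21 up and 4 down (5.49% and 6.84%), and DESeq2 on the same libraries called 2 and 1 DEGs. The median log2 fold change over the 83 genes was 0.54 at 1 wpt, 0.58 at 2 wpt and 0.50 at 4 wpt, against -0.00, 0.00 and -0.04 over all genes.

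At 4 wpt 2 genes were DEGs higher in +MSC and none lower (0.495% and 0% of all genes). Among them was Kcnab2, which was at 167, 102, 92.3 and 114 CPM in +MSC-4w, above 31.0 to 77.7 in +PBS-4w (log2 fold change 1.27, SE 0.26, adjusted p = 0.00919). At an adjusted p under 0.05, 16 genes were higher and 1 lower (3.07% and 0.928% of all genes). The 16 included Kcnk9 (1.89, SE 0.40, adjusted p = 0.0117), Kcnh5 (1.85, SE 0.41, adjusted p = 0.0160), Kcng1 (1.68, SE 0.37, adjusted p = 0.0138), Kcnj6 (1.47, SE 0.35, adjusted p = 0.0214) and Kcna1 (1.35, SE 0.36, adjusted p = 0.0349), and the 1 lower gene was Kcnk16 (-1.15, SE 0.31, adjusted p = 0.0384), at 2.11, 1.25, 1.68 and 2.19 CPM in +MSC-4w.

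Most of these counts rose when +PBS-4w replicate 1 was left out. Without it 16 genes were DEGs higher at 4 wpt (2.69% of all genes) and 0 lower (0.256%), and 33 were higher and 4 lower at an adjusted p under 0.05 (9.63% and 7.46%). Kcnc1 went from 1.13 (adjusted p = 0.128) to 1.83 (adjusted p = 0.00491) and Kcnab3 from 0.80 (adjusted p = 0.242) to 1.46 (adjusted p = 0.00946). Kcna1 moved the other way, from 1.35 to 0.98, since its +PBS-4w values were 5.29 in replicate 1 and 32.9, 38.4 and 28.6 in the others. Kcnk9 went from 1.89 to 1.62 (adjusted p = 0.0104), Kcnh5 from 1.85 to 1.55 (adjusted p = 0.0154), Kcng1 from 1.68 to 1.83 (adjusted p = 0.00624, a DEG), Kcnk16 from -1.15 to -1.31 (adjusted p = 0.0106) and Kcnj6 from 1.47 to 1.16 (adjusted p = 0.0178). Both DEGs of the full fit kept the call without this library. Neither kept it without +MSC-4w replicate 1, 2 or 4 or without +PBS-4w replicate 2, and there was 1 without +PBS-4w replicate 3, +PBS-1w replicate 2 or any 1 library of Intact, +MSC-1w or +MSC-2w, 4 without +PBS-1w replicate 1 or +PBS-2w replicate 2, and 6 without sub-SCI replicate 3 or +PBS-1w replicate 3.

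Averaged over the 3 weeks, 15 genes were DEGs higher in +MSC and 1 lower (1.61% and 0.956% of all genes tested), and at an adjusted p under 0.05, 43 were higher and 5 lower (12.3% and 10.9%). By family, the DEGs higher included the Kv1 gene Kcna1, the β-subunits Kcnab1, Kcnab2 and Kcnab3, the Kv3 gene Kcnc1, the silent subunits Kcng1 and Kcns2, Kcnh5 and Kcnh7 of the EAG/ERG/ELK family, the BK gene Kcnma1, the GIRK genes Kcnj3 and Kcnj6 and the two-pore gene Kcnk9. Without +PBS-4w replicate 1, 18 were higher and 3 lower (3.05% and 1.91% of all genes), and 14 of the 16 DEGs were among them. Kcnma1 (1.00 on the log2 scale) and Kcnj6 (0.94) were no longer DEGs, at adjusted p = 5.25e-04 and 0.00134, as both were just under the fold needed. Without +PBS-2w replicate 1, which leaves 1 library in its group, the 16 DEGs became 1, and without +PBS-1w replicate 3 they became 9.

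Over the 3 weeks Kcng1 rose by 1.43 on the log2 scale (SE 0.25, adjusted p = 7.82e-04), Kcnk9 by 1.37 (SE 0.27, adjusted p = 0.00167) and Kcnab2 by 1.19 (SE 0.17, adjusted p = 3.25e-04). Kcna2 had the smallest adjusted p of the 83 genes (3.09e-04) at a log2 fold change of 0.88 (SE 0.13), under the fold that a DEG needs. It was at 312, 336 and 317 CPM in +MSC-1w, 473, 455 and 413 in +MSC-2w and 452, 363, 372 and 449 in +MSC-4w, above every +PBS library of its week and below every Intact library.

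The genes that were higher after injury in all 4 comparisons were not called in +MSC. Kcnn4 was at -0.54 over the 3 weeks (SE 0.30, adjusted p = 0.207), Kcnk13 at -0.27 (SE 0.13, adjusted p = 0.124) and Kcnj5 at 0.02 (SE 0.17, adjusted p = 0.964, 95% interval -0.34 to 0.37). Kcnn4 varied in +MSC-4w, from 5.37 to 29.5 CPM. The 5 genes lower in +MSC at an adjusted p under 0.05 were instead Kcnj13 (-1.79, SE 0.43, adjusted p = 0.00590), Kcnk5 (-1.39, SE 0.37, adjusted p = 0.0115), Kcne4 (-0.88, SE 0.28, adjusted p = 0.0287), Kcnk16 (-0.73, SE 0.21, adjusted p = 0.0152) and Kcnk2 (-0.61, SE 0.15, adjusted p = 0.00714). Of these, Kcnj13, Kcnk5, Kcne4 and Kcnk16 were among the 7 DEGs higher in +PBS-4w, which shares libraries with this comparison. Kcnk2 (TREK-1), a mechanosensitive channel, was at 18.7, 9.27 and 7.76 CPM in +MSC-2w against 21.6 and 24.0 in +PBS-2w, and at 22.5, 26.3, 24.3 and 23.4 in +MSC-4w against 25.3, 46.6, 37.8 and 39.4 in +PBS-4w. Kcnj13 was at 0.71, 0.12 and 0.21 CPM in +MSC-2w against 5.57 and 5.59 in +PBS-2w.

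**Figure D3:**
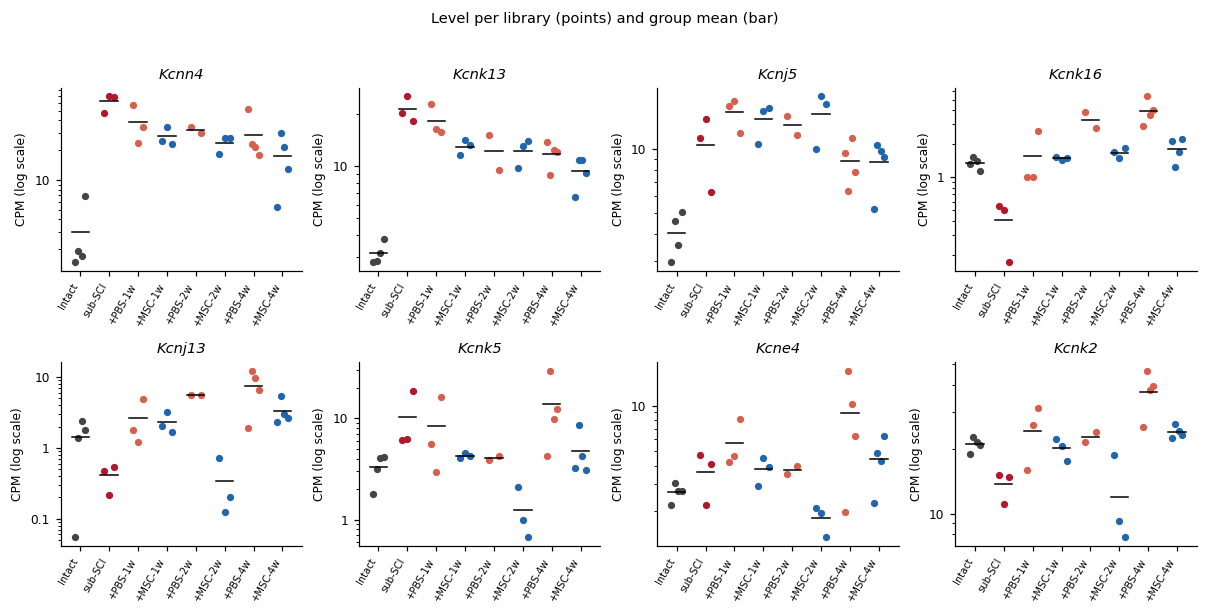
Level in CPM (log axis) of 8 genes that were higher in an injured group than in Intact or lower in +MSC than in +PBS, with 1 point per library and a bar at the group mean, coloured as Intact (grey), sub-SCI (dark red), +PBS (light red) and +MSC (blue). Kcnn4, Kcnk13 and Kcnj5 lie above the Intact libraries in +PBS and in +MSC, apart from 1 +MSC-4w library of Kcnn4 at 5.37, while Kcnk16, Kcnj13, Kcnk5, Kcne4 and Kcnk2 are highest in +PBS-4w by the group mean.

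The fibroblast markers moved with the genes that were lower in +MSC. All 4 markers were lower in +MSC at an adjusted p under 0.05 over the 3 weeks (median log2 fold change -1.29), with a summed level of 247 to 632 CPM in +MSC-2w and 1091 to 1608 in +PBS-2w. The 4 Schwann cell markers were all negative, with 0 called at an adjusted p under 0.05 (median -0.64). The neuron markers moved with those that were higher, with 3 of 10 DEGs higher over the 3 weeks, 9 at an adjusted p under 0.05 and a median log2 fold change of 1.04. Astrocyte markers were positive in 8 of 8 (median 0.28, 2 higher at an adjusted p under 0.05) and oligodendrocyte markers in 7 of 8 (0.30, 1 higher). Of 8 microglia and macrophage markers 0 were positive (median -0.31, 3 lower at an adjusted p under 0.05). At that threshold 1 of 4 endothelial and 1 of 5 mural cell markers were also lower. The part of these cell types in the differences was not tested.

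No gene of the 83 had an effect of hUC-MSCs that differed between weeks at an adjusted p under 0.05 in any of the 3 pairs of weeks (edgeR's interaction contrasts). At an unadjusted p under 0.05 there were 2, 4 and 1 such genes (2.67%, 3.9% and 2.3% of all genes tested) for 2 wpt against 1 wpt, 4 against 1 and 4 against 2, and DESeq2 called 0 at an adjusted p under 0.05. By the libraries alone, every +MSC library lay above every +PBS library of its week at all 3 weeks for 15 of the 83 genes (2.68% of all genes tested) and below for none (0.834%). Among the 15 were Kcna1, Kcna2, Kcnab1, Kcnab2, Kcnd3, Kcng1, Kcng4, Kcnh1, Kcnh7, Kcnj3, Kcnk9, Kcnma1 and Kcnq5. Without +PBS-4w replicate 1 there were 26 such genes, but the share of all genes was not computed without it. The change from 15 to 26 genes can thus not be set against all genes.

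**Figure D4:**
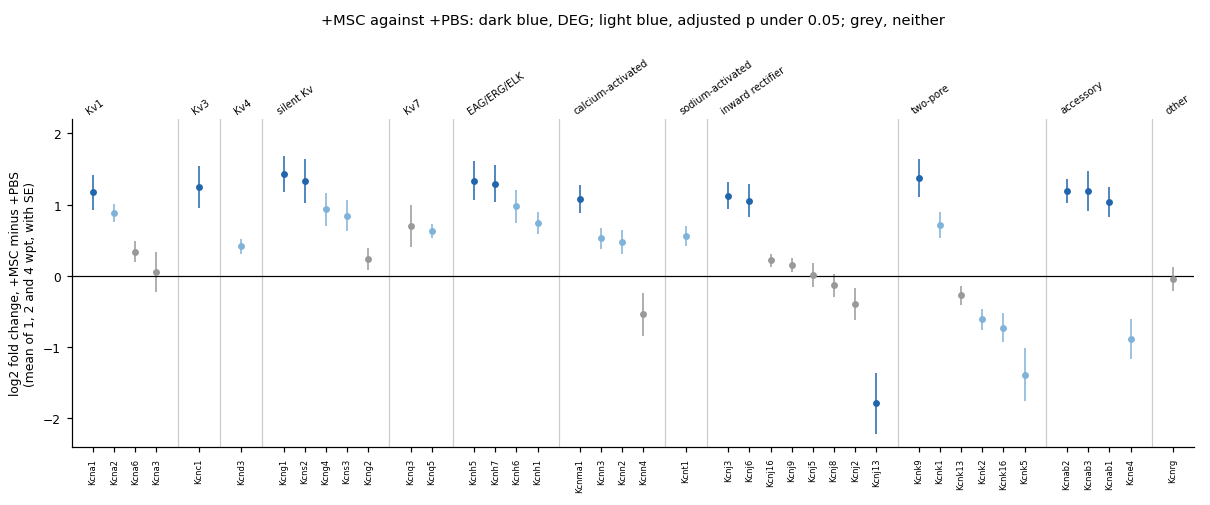
Log2 fold change of the 41 genes that the text names between +MSC and +PBS, averaged over 1, 2 and 4 wpt, with its standard error, ordered by family along the horizontal axis. The 13 dark blue points above 0 and Kcnj13 below it are DEGs, 15 more genes in light blue had an adjusted p under 0.05, and grey points had neither.

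Set against Intact, fewer potassium channel genes were DEGs in +MSC than in the +PBS comparisons above, which share the Intact libraries. In +MSC-1w 21 were lower and 3 higher (2.63% and 7.87% of all genes), in +MSC-2w 1 lower and 3 higher (0.461% and 5.6%) and in +MSC-4w 5 lower and 3 higher (1.53% and 7.25%). The 3 higher were Kcnn4, Kcnj5 and Kcnk13 at each week, with Kcnk13 at 2.04, 1.96 and 1.57. The 1 lower in +MSC-2w was Kcnh7 (-1.70), which was also lower in +MSC-1w (-2.13) and +MSC-4w (-1.53). In +MSC-4w Kcnab2 (-1.02), Kcnj3 (-1.20) and Kcns3 (-1.40), the last named for this count, were also among the 5. The median over the 83 genes was -0.86 in +MSC-1w, -0.62 in +MSC-2w and -0.71 in +MSC-4w, so that the levels remained below Intact as a group. Without +PBS-4w replicate 1, a library not in this contrast, 16 genes were DEGs in +MSC-4w against Intact in place of 8. The count was 13 without sub-SCI replicate 3, 14 without +MSC-4w replicate 1, 4 without +MSC-4w replicate 3, and 5 without +MSC-4w replicate 2 or 4 or Intact replicate 1 or 3. In +MSC-1w the 24 DEGs became 8 without +MSC-1w replicate 3, 12 without its replicate 1, and 14 without its replicate 2 or without Intact replicate 1 or 3.

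**Figure D5:**
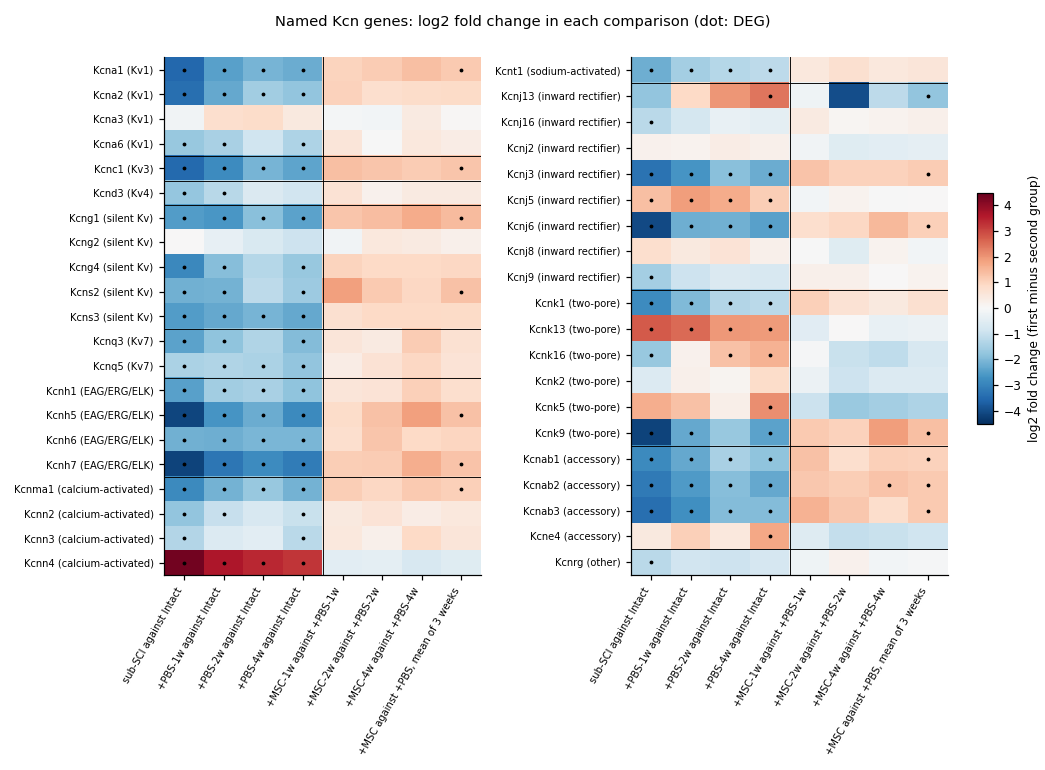
Log2 fold change (colour, blue lower and red higher in the first group) of the 41 genes that the text names in rows, by family, in 4 injury comparisons and 4 comparisons of +MSC with +PBS in columns, with a dot where the gene was a DEG. The injury columns are mostly blue, apart from rows such as Kcnn4, Kcnk13 and Kcnj5, and the +MSC columns are mostly pale red with few dots.

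Other genes of potassium handling, listed without regard to how they moved, gave the following counts. Of 17 listed partners of potassium channels 14 were tested, and 11 were DEGs lower in sub-SCI and none higher (17.5% and 16.6% of all genes tested), while over the 3 weeks 3 were DEGs higher in +MSC (1.61%). The neuron markers moved the same way in both comparisons, with 9 of 10 DEGs lower and 3 of 10 higher, and their part was not tested. The 3 partner genes that were higher, Adam22 (1.21), Adam23 (1.01) and Epb41l3 (1.08), encode proteins that anchor Kv1 channels or organize their complexes, and stood in sub-SCI at log2 fold changes of -3.54, -2.89 and -2.59 against Intact. Of 4 HCN genes, which carry a hyperpolarization-activated cation current, 3 were DEGs lower in sub-SCI and 1 was a DEG higher in +MSC over the 3 weeks. Of 6 subunit genes of the sodium-potassium pump, 3 were DEGs lower in sub-SCI and 1 was a DEG higher in +MSC over the 3 weeks.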

How the data were processed

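RNA sequencing of rat spinal cord was compared among 26 libraries in 8 groups, with groups and replicate numbers as the labels give them. Reads were trimmed by the authors with Trim Galore 0.5.0 and mapped with HISAT2 2.1.0 first to GRCh38, discarding human reads, and then to Rnor6 of the rat. Properly paired alignments, selected by SAMtools 1.9, went into featureCounts 1.6.4. The tables the authors deposited hold unnormalized counts for each gene. Strand setting and annotation release are not given in the sources used here, so a gene that overlaps another, or has a near-identical copy, is uncertain. The single-library tables were identical to the joint table's columns in 26 of 26 libraries.

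In R 4.3.3, the 17990 genes kept by filterByExpr were TMM-normalized and fitted in 1 edgeR 4.0.16 model with the 8 groups as levels (glmQLFit, glmQLFTest), which the group of 2 libraries needs, with Benjamini-Hochberg adjustment over all genes tested. Standard errors are the log2 fold change over the root of the F statistic. Levels are TMM-normalized CPM, per kilobase by the gene length in the deposited table, and log2 levels used a prior count of 2. Total counts lay between 19496602 and 43468509, and levels well under 1 CPM come from few reads. The fits were tested on simulated counts. The mean of 3 weeks is the average of the +MSC minus +PBS contrasts. The genes, families, marker lists and tests were chosen with earlier results of these data known. Genes are named from a list of 28 channel genes, for the 3 smallest adjusted p in each direction of a comparison, as DEGs between +MSC and +PBS, as DEGs higher in at least 2 injury comparisons, or as the largest and smallest change in sub-SCI (38 genes, 35 of them reported here), and others as the text says, for their level, promoter or count. Alternatives were DESeq2 1.42.0 on all libraries or on the 2 groups of a comparison, median-of-ratios size factors, no count filter, the replicate number as a block, a term for replicate 1, the replicate 1 libraries left out, and each library left out in turn. Results of some genes are not reported here, though counts over the 83 genes include them. Promoters are RefSeq windows of GRCr8, and gene coordinates in Rnor6 are not given here.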

Additional observations from a re-analysis of the deposited data

Results flagged for a closer look

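Of 105 groups of 4 libraries examined (35 named genes in Intact, +PBS-4w and +MSC-4w), 6 held a library far from the other 3 by Dixon's test, where about 1 in 20 would by chance, and 5 of the 6 were +PBS-4w replicate 1. In that library Kcnab1 was at 53.3 CPM (others 21.7 to 26.7), Kcnab3 at 29.2 (7.59 to 9.13), Kcnc1 at 71.8 (17.3 to 23) and Kcnn4 at 51.6 (18.1 to 22.9), all high, while Kcnq3 was low at 0.82 (9.13 to 10). Without it the +MSC-4w against +PBS-4w log2 fold change of Kcnab1 went from 1.06 (adjusted p = 0.0596, edgeR) to 1.42 (adjusted p = 0.00493), and that of Kcnq3 from 1.13 (adjusted p = 0.137) to 0.72 (adjusted p = 0.0892). The remaining one was Kcnn4 at 6.84 CPM in Intact replicate 4 (others 1.47 to 1.92). The cause was not tested for any of these.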

How the results depend on the processing

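Counts below are potassium channel DEGs in both directions together. Among the alternatives, shares of all genes called were computed only without +PBS-4w replicate 1, for +MSC against +PBS at 4 wpt and over the 3 weeks. The other changed counts, here and in the sections above, have no such share beside them. They describe the processing and are not results about the channel genes. DESeq2 on all libraries gave 2 DEGs at 1 wpt and 1 at 2 wpt between +MSC and +PBS (0 in edgeR), 15 at 4 wpt (2 in edgeR), and 8 in +MSC-2w and 14 in +MSC-4w against Intact (4 and 8). DESeq2 on the 2 groups gave 9, 4 and 11 at 1, 2 and 4 wpt, and 12 in +MSC-2w and 18 in +MSC-4w against Intact. Without the 8 replicate 1 libraries there were 6 in +PBS-2w against Intact (33 with them), 2 in the mean of 3 weeks (16), 15 in +MSC-1w (24), 7 in +MSC-2w and 14 in +MSC-4w against Intact. With a term for replicate 1 there were 5 at 4 wpt and 14 in +MSC-4w against Intact. Same-numbered libraries did not deviate together in every pair (correlations of their deviations between -0.0781 and 0.247), so the numbers were not taken as pairs, although in +PBS-1w against Intact each library correlated best with its own number. Replicate 1 libraries correlated at 0.131 to 0.247 outside the 2 wpt comparisons. Of the 17990 genes tested 337, and of the 83 potassium channel genes 0, were highest in replicate 1 of all 8 groups. As such genes are few among all tested, 0 of 83 does not set the channel genes apart. With the replicate block there were 3 at 4 wpt (20 at an adjusted p under 0.05), 19 in the mean of 3 weeks and 11 in +MSC-4w against Intact, against 2, 17, 16 and 8 without it.

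Leaving out each library in turn gave 57 to 65 in sub-SCI, 41 to 50 in +PBS-1w, 4 to 38 in +PBS-2w and 42 to 57 in +PBS-4w against Intact, 0 to 1, 0 to 0 and 0 to 16 between +MSC and +PBS at 1, 2 and 4 wpt (4 to 37 at an adjusted p under 0.05 at 4 wpt), 1 to 21 in the mean of 3 weeks (24 to 53 at an adjusted p under 0.05), 8 to 27, 3 to 6 and 4 to 16 in +MSC at 1, 2 and 4 wpt against Intact, 9 to 18 between +PBS-4w and sub-SCI, and 13 to 26 genes whose +MSC and +PBS libraries did not overlap. Where 1 +PBS-2w library was left, it was assumed to vary like the other groups. The counts of genes that did not overlap have no share of all genes beside them when a library was left out. Effects that differed between weeks numbered 0 under every alternative. Of 163 called changes of named genes, none changed sign under any alternative, and 93 kept the call with each library left out. The cause of these shifts was not tested. Median-of-ratios size factors and no count filter left the other counts within 1.5 times.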
